A study of Mus musculus with 8 samples.

Results

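The 8 genes described here take part in cGMP signalling or mark the olfactory neurons that carry guanylyl cyclase D. They are 2 subunits of soluble guanylyl cyclase (Gucy1a2 and Gucy1b2), 3 cyclic nucleotide phosphodiesterases (Pde1b, Pde2a and Pde3a) and 3 markers of guanylyl cyclase D (GC-D) neurons (Gucy2d, Cnga3 and Car2). They were 8 of the 19938 genes that had a transcript cluster of their own on the array, and each was measured by 1 cluster. The genes were chosen by name with their values in these arrays already known: 5 because their values were higher in Lhx2 knockout than in control mucosa, and 3 as markers of GC-D neurons to set beside them. Their differences between the groups are therefore a description and carry no test.

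Olfactory mucosa of 8 mice at postnatal day 26 was measured, 1 mouse per Affymetrix Mouse Gene 1.0 ST array. The 4 conditional knockouts were OmpCre:Lhx2(fl/fl), in which Cre inserted at the Omp locus is made once olfactory sensory neurons (OSNs) mature and removes the first exons of Lhx2, a LIM homeodomain transcription factor. The 4 controls were littermates, of which 3 were OmpCre:Lhx2(fl/+) and 1, control replicate 1, was Lhx2(fl/+) without Cre. All mice were of a mixed 129 x C57BL/6J background and all carried at least 1 floxed Lhx2 allele. Recombination by OmpCre is incomplete, so some mature OSNs of a knockout keep Lhx2. Lhx2 itself read 12.03, 11.99, 12.17 and 12.16 in knockout replicates 1 to 4, against 12.39, 12.33, 12.29 and 12.33 in control replicates 1 to 4, on the log2 scale used throughout (adjusted p = 0.0383 by limma). Its cluster also reads exons outside the deleted part and cells without Cre.

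Cyclic GMP is made from GTP by guanylyl cyclases. Soluble cyclases are pairs of an alpha and a beta subunit that bind nitric oxide through heme, and membrane cyclases are single-chain receptors. Phosphodiesterases (PDEs) break cGMP, cAMP or both, while cGMP-gated channels and cGMP-dependent kinases carry the signal onward. Most OSNs signal through cAMP, made by adenylyl cyclase 3 and read by a channel of Cnga2, Cnga4 and Cngb1. The sparse GC-D neurons, which project to the necklace glomeruli of the olfactory bulb, instead use the membrane cyclase GC-D, the cone-type channel subunit Cnga3, the cGMP-stimulated phosphodiesterase Pde2a and carbonic anhydrase 2, and they respond to guanylin peptides and carbon dioxide.

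RefSeq promoter windows on the mouse build GRCm38.p6, from 250 bases before to 50 bases after an annotated start, were found for 6 of the 8 genes and came to 13 windows. Pde3a and Car2 had none in the table used. The windows of the 3 genes with the largest differences are printed with that of the GC-D cyclase, so that the start regions of the higher genes can be read beside a marker whose groups overlapped. Each is in lower case and 5′ to 3′ on the strand of the gene, and capitals mark a match to CCCNNGGG, the core letters bound by the EBF factors of OSNs.
Gucy1a2 (chr9:3532099-3532398, plus strand): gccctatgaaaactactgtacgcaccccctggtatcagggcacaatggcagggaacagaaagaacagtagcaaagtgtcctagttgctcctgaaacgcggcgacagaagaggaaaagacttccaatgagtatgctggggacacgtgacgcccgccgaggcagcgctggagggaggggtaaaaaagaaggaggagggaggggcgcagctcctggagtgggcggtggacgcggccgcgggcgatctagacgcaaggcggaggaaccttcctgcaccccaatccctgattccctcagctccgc
Pde1b (chr15:103502784-103503083, plus strand): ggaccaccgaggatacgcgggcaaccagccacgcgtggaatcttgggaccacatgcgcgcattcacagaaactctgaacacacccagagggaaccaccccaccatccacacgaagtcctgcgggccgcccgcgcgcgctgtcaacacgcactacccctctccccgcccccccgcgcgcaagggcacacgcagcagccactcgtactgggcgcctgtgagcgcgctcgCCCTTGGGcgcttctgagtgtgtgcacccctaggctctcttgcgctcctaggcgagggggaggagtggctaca
Pde2a (chr7:101421441-101421740, plus strand): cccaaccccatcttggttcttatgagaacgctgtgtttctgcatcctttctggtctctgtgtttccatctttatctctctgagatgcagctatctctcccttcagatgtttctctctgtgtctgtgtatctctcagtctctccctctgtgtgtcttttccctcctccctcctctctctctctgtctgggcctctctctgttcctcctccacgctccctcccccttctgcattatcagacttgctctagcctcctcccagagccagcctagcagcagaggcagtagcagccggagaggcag
Gucy2d (chr7:98440166-98440465, plus strand): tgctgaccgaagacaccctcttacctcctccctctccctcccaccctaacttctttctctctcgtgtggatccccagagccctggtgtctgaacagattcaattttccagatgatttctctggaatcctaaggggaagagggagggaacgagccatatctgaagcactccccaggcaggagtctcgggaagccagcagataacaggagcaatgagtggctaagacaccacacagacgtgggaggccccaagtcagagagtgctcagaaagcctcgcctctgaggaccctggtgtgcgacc
Of the 13 windows, 1 held CCCNNGGG, against 13.7% of all 32851 windows in the table. It is the Pde1b window printed here, where the match begins at base -23 relative to the start. TAATTA, a core that homeodomain proteins bind, was in 0 of the 13 windows and in 5.29% of all windows. TGACGTCA, the cAMP response element, was in 0 of the 13 and in 1.79% of all. Each motif was searched on both strands, and with a single match in the 13 windows no motif overlapped another. The G and C content was 60.0% in the Gucy1a2 window, 67.0% in that of Pde1b, 53.3% in that of Pde2a and 55.7% in that of Gucy2d. Pde1b has 3 windows and Pde2a has 5, and the arrays do not show which start was used.

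The 5 cyclase and PDE genes were higher in the knockouts by 1.38-fold to 4.16-fold, and no knockout array overlapped a control array for any of them. The 3 GC-D neuron markers differed by at most 0.11 on the log2 scale, and their groups overlapped. Pde2a, which GC-D neurons are also known to carry, was counted with the 5 higher genes, so these 3 are not all their markers. By the fit across all clusters, 5 of the 8 genes were called higher, 0 lower and 3 not called. Over all 23410 clusters tested, 8.39% were called, 2.1% as higher and 6.29% as lower, but since the 8 genes were selected on this contrast nothing is read from their share. The share of all clusters whose groups did not overlap was not counted. Nothing is therefore read from the separation of the 5 genes either. The median difference over all clusters tested was 0.05. In a whole mucosa, fewer or more cells of a type and less or more RNA per cell cannot be told apart.

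**Figure D1:**
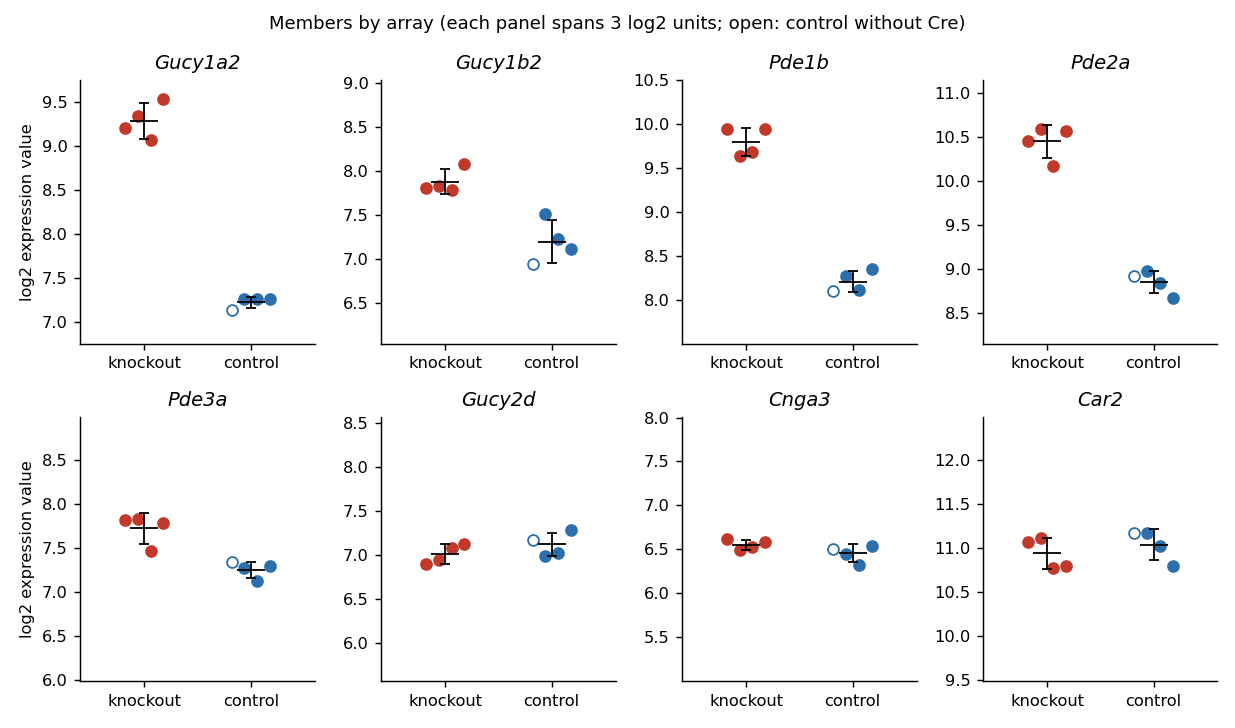
Log2 expression value of each of the 8 genes on each array, with knockout at the left and control at the right of every panel, points for the 4 mice of a group, bars for the mean and SD, and an open point for the control without Cre. Gucy1a2, Gucy1b2, Pde1b, Pde2a and Pde3a, which were chosen as higher in these arrays, show all 4 knockouts above all 4 controls. The points of Gucy2d, Cnga3 and Car2 share one range.

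Among the soluble cyclase subunits, Gucy1a2 differed most. It encodes the alpha 2 subunit, which pairs with the common beta 1 subunit and is known chiefly from the brain. Its values (transcript cluster 10582958) were 9.20, 9.34, 9.06 and 9.53 in knockout replicates 1 to 4 and 7.13, 7.26, 7.26 and 7.26 in control replicates 1 to 4. The 4 controls lay within a narrow band, with the mouse that lacked Cre lowest, and the lowest knockout was 1.80 above the highest control. The means were 9.28 ± 0.20 in knockouts and 7.22 ± 0.06 in controls (SD, n = 4 each), a difference of 2.06 ± 0.10 (SE), or 4.16-fold. Only 2 of all clusters tested had a larger increase.

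Gucy1b2 encodes the beta 2 subunit, which in the mouse olfactory epithelium is known from a small set of Trpc2-expressing neurons that detect low oxygen. Its cluster (10420675) read 7.81, 7.83, 7.79 and 8.08 in the knockouts and 6.95, 7.51, 7.23 and 7.12 in the controls. Knockout replicate 4 stood above 3 knockouts that were close together, and the controls were spread more widely, with control replicate 1 again lowest and control replicate 2 highest. The means of 7.88 ± 0.14 in knockouts and 7.20 ± 0.24 in controls gave a difference of 0.67 ± 0.12, or 1.6-fold, and the gap between the groups was 0.28. Against the 3 controls with Cre alone, whose means were 7.26 for Gucy1a2 and 7.29 for Gucy1b2, both genes were still higher in every knockout.

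Of the PDEs, Pde2a and Pde1b differed by about the same factor. Pde2a, a dual-specificity enzyme that cGMP activates and that GC-D neurons are known to carry, read 10.45, 10.59, 10.17 and 10.57 in the knockouts (cluster 10555510), against 8.92, 8.97, 8.84 and 8.67 in the controls. Knockout replicate 3 was the lowest knockout and control replicate 4 the lowest control, and the groups lay 1.20 apart at their nearest. Mean values were 10.45 ± 0.19 in knockouts and 8.85 ± 0.13 in controls, which is 1.6 ± 0.11 higher, or 3.02-fold.

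Pde1b, a calcium- and calmodulin-stimulated enzyme that acts on both nucleotides with a preference for cGMP, read 9.95, 9.64, 9.68 and 9.94 in the knockouts (cluster 10427369) and 8.10, 8.27, 8.11 and 8.35 in the controls. Knockout replicates 1 and 4 formed a higher pair than replicates 2 and 3, and the nearest arrays of the 2 groups were 1.29 apart. The means were 9.80 ± 0.16 in knockouts and 8.21 ± 0.12 in controls, a difference of 1.59 ± 0.09, or 3.02-fold. Over all clusters tested, 15 that were called higher had a difference at least as large as that of Pde1b, a count that includes Pde1b, Pde2a and Gucy1a2.

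Pde3a, which cleaves cAMP and is inhibited by cGMP, had the smallest difference of the 5. It read 7.81, 7.83, 7.46 and 7.78 in the knockouts (cluster 10542575), against 7.34, 7.27, 7.12 and 7.29 in the controls. Knockout replicate 3 stood well below the other 3 knockouts, only 0.12 above the highest control, which was the mouse without Cre. The means were 7.72 ± 0.18 in knockouts and 7.25 ± 0.09 in controls, a difference of 0.47 ± 0.09, or 1.38-fold. Without control replicate 1 the control means were 8.83 for Pde2a, 8.24 for Pde1b and 7.23 for Pde3a, so that the control without Cre moved none of the 3 by more than its SD. Knockout replicate 3 was the lowest knockout for 4 of the 5 higher genes, the exception being Pde1b.

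Among the GC-D neuron markers, Gucy2d, the cyclase receptor itself, read 6.90, 6.94, 7.08 and 7.12 in the knockouts (cluster 10555156) and 7.17, 6.99, 7.02 and 7.28 in the controls. The highest and the lowest of the 8 arrays were 0.38 apart, with knockouts and controls mixed in the middle of that range. The means were 7.01 ± 0.11 in knockouts and 7.12 ± 0.13 in controls, and the difference was -0.11 ± 0.08, with a 95% interval from -0.30 to 0.08. Cnga3, the channel subunit that cGMP opens, read 6.62, 6.49, 6.53 and 6.58 in the knockouts (cluster 10345571), against 6.51, 6.45, 6.32 and 6.54 in the controls. Its lowest array was control replicate 3 and the groups overlapped. The difference was 0.10 ± 0.07, with a 95% interval from -0.05 to 0.25, between means of 6.55 ± 0.06 in knockouts and 6.46 ± 0.10 in controls.

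Car2 encodes carbonic anhydrase 2, through which GC-D neurons respond to carbon dioxide, but many other cells make it too. It read 11.07, 11.11, 10.77 and 10.80 in the knockouts (cluster 10490923) and 11.17, 11.17, 11.02 and 10.80 in the controls. In both groups the first 2 replicates were higher than the fourth, and those 4 arrays share the title series 5 described next. The means were 10.94 ± 0.18 in knockouts and 11.04 ± 0.18 in controls, a difference of -0.10 ± 0.11 with a 95% interval from -0.35 to 0.14. The intervals of all 3 markers hold for the values as deposited, and the signal of these clusters over background is not known. Gucy2d and Cnga3 lay below the median of clusters with a symbol (8.44 to 8.57) on every array, as did Gucy1b2 and Pde3a. Flat values of Gucy2d and Cnga3 therefore do not show that GC-D neurons were unchanged.

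The mouse numbers in the sample titles begin with 5, 7 or 9, and these title series, which may or may not be batches, each hold both groups: 2 knockouts and 2 controls in series 5, and 1 of each in series 7 and in series 9. The knockout minus control difference of Gucy1a2 was 2.08, 1.80 and 2.27 in series 5, 7 and 9. That of Pde2a was 1.57, 1.33 and 1.91, and that of Gucy1b2 was 0.59, 0.56 and 0.96. Series 7 gave the smallest difference and series 9 the largest for all 3 of these genes. Pde1b hardly varied, at 1.61, 1.57 and 1.59. Pde3a differed by 0.52, 0.33 and 0.50, so the 5 genes were higher in every series. That was fixed in advance, because each series holds both groups and the groups of these genes did not overlap. The markers stayed near 0 in each series: Gucy2d at -0.16, 0.05 and -0.17, Cnga3 at 0.07, 0.21 and 0.04, and Car2 at -0.08, -0.24 and 0.00. Series 7 and 9 hold 1 mouse of each group, so their differences have no error of their own.

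**Figure D2:**
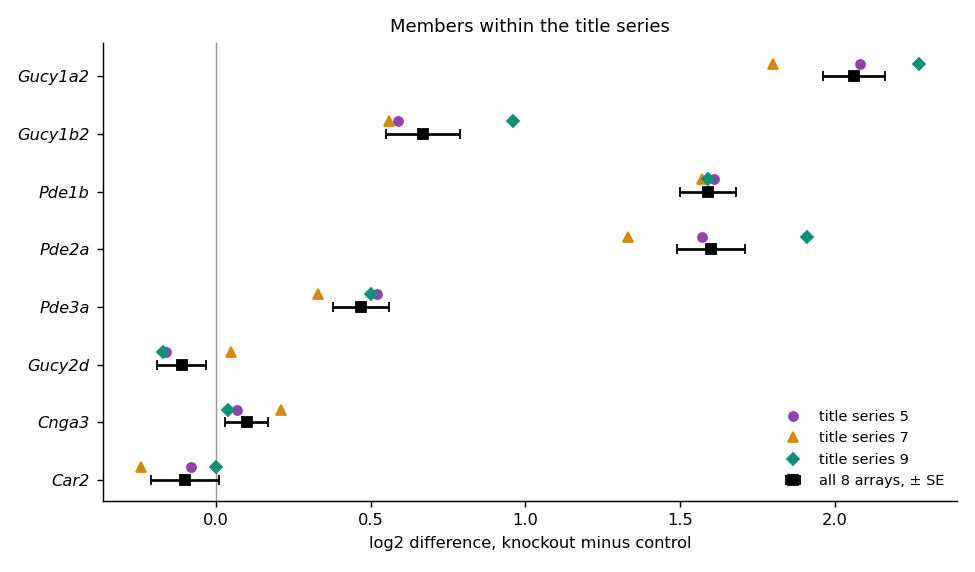
Knockout minus control difference (log2) of each of the 8 genes over all 8 arrays (squares with SE bars) and within title series 5 (circles), 7 (triangles) and 9 (diamonds). The points of the 5 cyclase and PDE genes lie right of 0 in every series, from 0.33 for Pde3a to 2.27 for Gucy1a2, and those of Gucy2d, Cnga3 and Car2 lie between -0.24 and 0.21. For the 5 genes this follows from groups that did not overlap.

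To set the 2 kinds of gene side by side within each mouse, the mean of the 3 markers was taken from the mean of the 5 cyclase and PDE genes on the same array. Values of different probes cannot be compared as levels, so only the change of this quantity between the groups has a meaning. It was 0.85, 0.87, 0.71 and 1.01 in knockout replicates 1 to 4 and -0.60, -0.35, -0.41 and -0.47 in control replicates 1 to 4. The groups were far apart, with knockout replicate 3 nearest to the controls. Its mean was 0.86 ± 0.13 in knockouts and -0.46 ± 0.11 in controls (SD, n = 4 each), a change of 1.32. Of this, the 5 genes contributed 1.28, with a mean of 9.03 ± 0.14 in knockouts and 7.75 ± 0.07 in controls. The 3 markers averaged 8.17 ± 0.03 in knockouts and 8.20 ± 0.07 in controls. Their mean leaves out Pde2a, which GC-D neurons are also known to carry and which was placed with the 5 higher genes. The choice of genes fixed the direction of this contrast.

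The values of Pde2a and Gucy2d, 2 products known from the same neurons, moved apart in the same way. The Gucy2d cluster lay below the median of every array, and its signal over background is not known. Pde2a minus Gucy2d was 3.55, 3.65, 3.09 and 3.46 in the knockouts and 1.76, 1.98, 1.81 and 1.38 in the controls. The mean was 3.44 ± 0.24 in knockouts and 1.73 ± 0.25 in controls, a change of 1.71. Since Pde2a was chosen as higher in these arrays, this change restates that choice. Values of a whole mucosa do not show which cells it came from. Knockout replicate 3 had the lowest knockout value here too, and control replicate 4 the lowest of the controls.

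Scaling changed the sign of some markers and of none of the 5 higher genes. Centring each array on its median moved the median of all clusters to 0.11, quantile normalization to 0.02, and centring on a list of 16 mature OSN genes to 0.62. Under that last scaling Gucy2d and Car2 were both at 0.47 and Cnga3 at 0.67, so the signs of Gucy2d and Car2 turned, although both lay below the median of all clusters. On the same scale Gucy1a2 was at 2.63, Pde1b and Pde2a at 2.17, Gucy1b2 at 1.25 and Pde3a at 1.04, all above that median. These values describe genes chosen on the same arrays and test nothing. The list of 16 is not the larger set of mature OSN mRNAs to which the authors normalized. For that set they reported a small average reduction in this strain. Here the list averaged 11.41 to 11.52 per array in knockouts and 12.03 to 12.08 in controls, so this scaling lifts genes further than theirs.

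**Figure D3:**
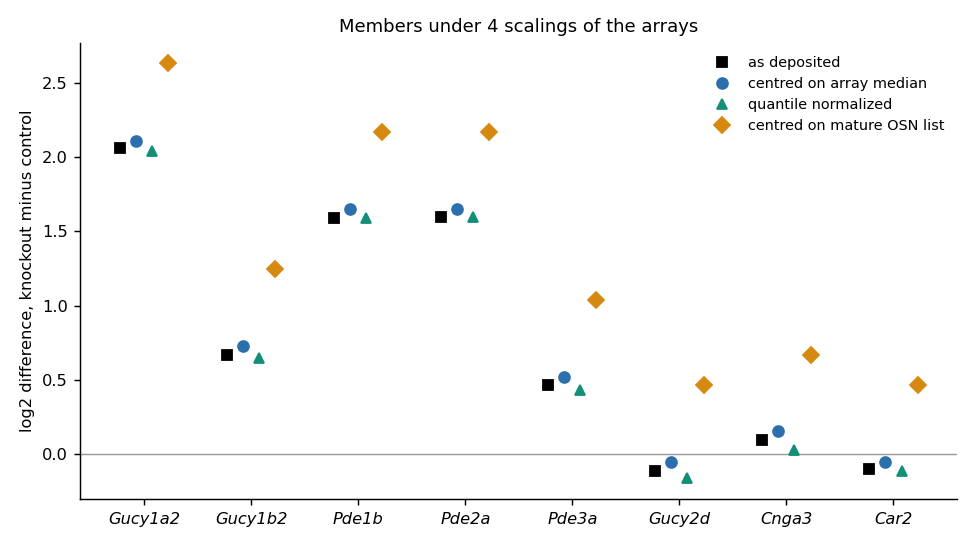
Knockout minus control difference (log2) of each of the 8 genes with the values as deposited (squares), centred on the array median (circles), quantile normalized (triangles) or centred on the mature OSN list (diamonds). The first 3 scalings nearly coincide, and the last lifts every gene, to 0.47 for Gucy2d and Car2 and to 2.63 for Gucy1a2, together with the median of all clusters (0.62).

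The other genes of the pathway were taken from 4 lists. Of 51 genes, 50 were measured, of which 1 was called higher, 5 lower and 44 not called. This balance depended on the fit, with 7 higher and 6 lower with title series as a block, 6 and 4 with array-median centring, and 5 and 7 with array weights. In the fit without covariates 12.0% were called, against 8.39% of all clusters, with a median difference of 0.05, equal to that of all clusters. A difference at least as large as that of Pde3a, in either direction, was seen in 5 of the 50.

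A list of 12 further genes held guanylyl cyclases, the clearance receptor Npr3, which is not a cyclase, and nitric oxide synthases. All were measured, and 0 were called higher and 0 lower. Their differences ran from -0.09 to 0.21 with a median of 0.05. The natriuretic peptide receptor Npr2 averaged 8.93 ± 0.11 in knockouts and 8.88 ± 0.19 in controls, and the clearance receptor Npr3 averaged 8.0 ± 0.08 in knockouts and 8.09 ± 0.19 in controls. Gucy1a1 and Gucy1b1, the alpha 1 and beta 1 subunits of the common soluble cyclase, were picked out after their values were seen because beta 1 is the known partner of the Gucy1a2 product. Gucy1b1 read 6.28, 6.53, 6.21 and 6.32 in the knockouts and 6.19, 6.38, 6.32 and 6.30 in the controls, with overlapping groups and a difference of 0.04 ± 0.08 (limma adjusted p = 0.863). The difference of Gucy1a1 was 0.11 ± 0.11 (adjusted p = 0.664). None of the 12 reached an unadjusted limma p under 0.05 either. The methods' t-test, run here on the values as deposited with calls at an adjusted p under 0.05, called 0.

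Among ligands and calcium sensors of the membrane cyclases, 8 of 9 genes were measured (Guca1b is not analysed here), with 1 higher, 1 lower and a median of 0.19. Ncald, a neuronal calcium sensor, rose by 0.30 ± 0.07 (limma adjusted p = 0.0282), from values of 9.22, 9.11, 9.04 and 9.04 in the knockouts against 8.82, 8.88, 8.66 and 8.85 in the controls. Nppc, the C-type natriuretic peptide, fell by 0.25 (SE 0.07, adjusted p = 0.0481), with 7.36, 7.43, 7.28 and 7.27 in the knockouts and 7.56, 7.55, 7.52 and 7.72 in the controls, though it stood at 0.32 when arrays were centred on the mature OSN list. The groups of both genes did not overlap, but Ncald was called in 4 of 8 fits that each left out 1 array, and Nppc in 0 of 8. The guanylin peptides, the ligands of GC-D, were not called: Guca2a differed by 0.23 ± 0.16 and Guca2b by 0.01 ± 0.09.

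Of the 21 other phosphodiesterases, 0 were called higher and 1 lower, and the median difference was 0.03. The 1 called was Pde1c, the calmodulin-stimulated PDE of OSN cilia and a paralog of Pde1b. It read 10.79, 10.71, 10.96 and 10.88 in the knockouts and 11.33, 11.20, 11.45 and 11.34 in the controls, without overlap, and fell by 0.50 (SE 0.08, adjusted p = 0.00186). Pde1b and Pde1c thus went in opposite directions in the values as deposited, whereas Pde1c stood at 0.08 when arrays were centred on the mature OSN list. Pde4c, at 0.47 ± 0.13, matched the difference of Pde3a without passing the test (adjusted p = 0.064). Pde3b, the paralog of Pde3a, was at -0.11 ± 0.11, Pde5a, the cGMP-specific PDE of smooth muscle, at 0.24 ± 0.14, and Pde4a, the PDE of OSN cell bodies, at -0.07 ± 0.08, and none of these 3 was called. The whole list ran from -0.50 to 0.47, with 5 genes higher and 3 lower at an unadjusted limma p under 0.05 and 1 higher and 1 lower by the methods' t-test after adjustment.

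Of 9 cGMP targets and efflux pumps, 0 were called higher and 3 lower, all 3 being subunits of the OSN channel. Cnga4 read 10.10, 10.17, 9.60 and 9.99 in the knockouts and 11.93, 12.04, 11.94 and 12.05 in the controls, so that all 4 knockouts lay far below all 4 controls. It fell by 2.02 (SE 0.12, adjusted p = 3.12e-06) and was 4.07-fold lower, and it stood at -1.45 when arrays were centred on the mature OSN list. Cnga2 fell by 0.49 (SE 0.05, adjusted p = 0.000172) and Cngb1 by 0.54 (SE 0.08, adjusted p = 0.00123), and neither had overlapping groups. Cngb1 has 4 clusters, and the one with the lowest mean stood at 0.28 and was not called. At an unadjusted limma p under 0.05, 2 targets were higher and 3 lower, and the methods' t-test called 0 higher and 3 lower after adjustment. The kinases Prkg1 and Prkg2 both stood at 0.29, with SE of 0.13 and 0.09, and were not called. Cnga3 was thus the olfactory channel subunit whose groups overlapped, while Cnga2, Cnga4 and Cngb1 were lower. On the scale centred on mature OSN genes Cnga2 stood at 0.09 and Cngb1 at 0.04. Cnga2, Cnga4 and Cngb1 are themselves in the list that sets this scale, so their values on it are partly built in.

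**Figure D4:**
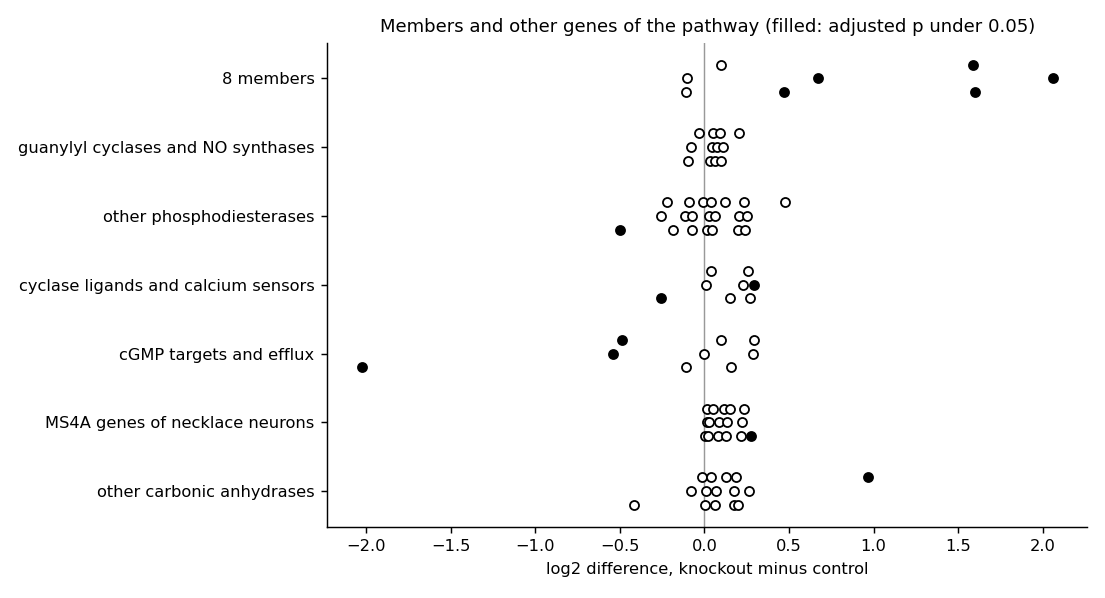
Knockout minus control difference (log2) of the 8 genes and of the other listed genes, 1 point per gene, filled where the adjusted p of the limma fit is under 0.05, which for the 8 genes only restates how they were chosen. Gucy1a2, Pde1b and Pde2a lie further right than any other listed gene, and Cnga4 lies furthest left at -2.02.

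A further list held the whole MS4A family, of which only some members are known from the same necklace neurons. The MS4A genes encode 4-pass membrane proteins, some of which necklace neurons use as receptors. Of 17 listed, 16 were measured (Ms4a18 is not analysed here), with 1 called higher, 0 lower (2 higher and 0 lower at an unadjusted limma p under 0.05, and 0 either way by the methods' t-test) and a median of 0.10. The 1 called was Ms4a4a, at 6.66, 6.93, 6.74 and 6.81 in the knockouts and 6.61, 6.46, 6.53 and 6.42 in the controls, without overlap. It rose by 0.28 ± 0.07 (limma adjusted p = 0.0483), and it was called in 1 of 8 fits that left out 1 array. The other MS4A genes differed by 0.01 to 0.23 and were not called.

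Of the 15 carbonic anhydrases other than Car2, 1 was called higher and 0 lower by limma and by the methods' t-test, and 2 were higher and 0 lower at an unadjusted limma p under 0.05, with a median of 0.07. Car8, a family member without enzyme activity, read 8.92, 8.93, 8.24 and 8.77 in the knockouts and 7.81, 7.88, 7.59 and 7.72 in the controls. It rose by 0.97 ± 0.15 (limma adjusted p = 0.00154), and knockout replicate 3 was its lowest knockout too. Car2 therefore lay among the many carbonic anhydrases that were not called, and Car8 stood apart from them.

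Genes whose values ran most like those of Pde2a over the 8 arrays were Mctp2 (Pearson r = 0.993), Kcnb2 (0.992), Tmem63c (0.990), Rims3 (0.990) and Sema3f (0.988). They differed by 0.83, 1.21, 0.84, 0.77 and 0.67 in the same direction, and knockout replicate 3 was the lowest knockout for each of them. These r rest on the difference between the groups that Pde2a was chosen for. Replicate 3 was also the lowest knockout for Pde2a itself, so its low place in these genes comes largely with their choice. Gucy2d spanned only 0.38 over the arrays, and the genes most like it, Obox6 (0.969), Nup62cl (0.964), Sox6os (0.941), Psg16 (0.930) and Ovch2 (0.923), differed by -0.13 to -0.04 between the groups. None of these 5 was called, and the most varied of them, Obox6, spanned 0.66. In knockouts the 5 averaged from 4.12 for Obox6 to 7.09 for Sox6os, below the array medians, and their signal over background is not known.

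Markers of the cells that could carry the 8 genes were read in the same arrays. Of 16 mature OSN genes, 14 were lower and 0 higher, with a median of -0.46, and their mean per array was 11.41 to 11.52 in knockouts and 12.03 to 12.08 in controls. The methods' t-test with adjustment called 13 lower. Without 1 array at a time, Gnal was called in 0 of 8 fits and Rtp1 in 7 of 8. Omp read 12.88, 12.80, 12.37 and 12.43 in the knockouts, against 13.78, 13.56, 13.22 and 13.27 in the controls. It was not called by the methods' t-test (adjusted p = 0.0526). Its highest value was in control replicate 1, the only mouse without Cre at the Omp locus. Besides the channel genes, Gng13 fell by 1.0 and Ric8b by 0.53 in this list, which by construction averages 0 when arrays are centred on it (Ric8b then stood at 0.04). Of 14 immature OSN genes, 1 (Tubb3, 0.41) was higher and 2 (Stmn4, -0.59, or -0.01 on that scale, and Ncam1, -0.22, or 0.36 on that scale) were lower, with a mean per array of 10.86 to 11.05 in knockouts and 10.95 to 10.99 in controls. Without 1 array at a time, Stmn4 was called in 4 of 8 fits and Ncam1 in 2 of 8, and the methods' t-test did not call Stmn4.

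Soluble cyclase, Pde2a and Pde3a are also known from blood vessels, platelets and macrophages, whose marker lists had 1 called gene among them. Of 10 smooth muscle and pericyte genes 0 were called, with a mean per array of 9.32 to 9.73 in knockouts and 9.32 to 9.64 in controls, and their brightest members, Rgs5 and Acta2, both differed by 0.10. Of 10 endothelial genes only Esam was called (0.72 ± 0.11 higher), and the list averaged 7.96 to 8.40 in knockouts and 7.93 to 8.31 in controls. Of 7 measured platelet genes 0 were called, at 8.28 to 8.48 in knockouts and 8.24 to 8.41 in controls, with Ppbp at 0.24 and Itgb3 at -0.08. Macrophage genes (0 of 10 called) averaged 7.97 to 8.22 in knockouts and 7.99 to 8.15 in controls, with Lyz2 at 0.05 and Csf1r at -0.10.

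Red blood cells, which hold much Car2, gave 4 measured genes with 0 called, at 8.05 to 8.65 in knockouts and 7.79 to 8.68 in controls, with Slc4a1 at 0.10 and Alas2 at 0.15. Of 9 measured sustentacular genes 0 were called (11.60 to 11.73 in knockouts and 11.59 to 11.70 in controls), with Cyp2g1 at 0.04 and Sult1c1 at 0.06. Of 9 measured genes of microvillous cells and of Trpm5 or Trpc2 cells, 1 was called higher, Coch at 0.34 ± 0.08, and the list averaged 8.49 to 8.57 in knockouts and 8.37 to 8.52 in controls. Coch was called in 3 of 8 fits that left out 1 array and not by the methods' t-test. In the smooth muscle, platelet, red blood cell and sustentacular lists 0 genes reached an unadjusted limma p under 0.05, and in the macrophage list 1 did. The methods' t-test called 0 in these 5 lists. Trpc2, which the Gucy1b2 neurons are known to express, is not analysed here. Of these lists, the mature OSN list had the most genes called, 0 of them higher, with 1 gene higher at an unadjusted limma p under 0.05. Its part in the values of the 8 genes was not tested.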

How the data were processed

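The deposited log2 expression values were produced by the authors in Affymetrix Expression Console, from equal amounts of total RNA, with all exons of a gene summed up in 1 value per transcript cluster. The software version, background correction and summary method were not stated in any source used here. The deposited values lay between 2.35 and 14.6 and were analysed without rescaling. Array medians over named clusters were 8.44 to 8.57, correlations between arrays 0.979 to 0.994, and 0 pairs of arrays were identical. Arrays give no depth, so the number of arrays limits precision.

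Gene symbols were read from the annotation of the array and brought up to date by Entrez ID against RefSeq (GRCm38.p6). Of 35557 clusters, 21789 had 1 symbol (21698 matched by ID), 1621 several and 12147 none. The test covered the 23410 clusters with a symbol, and a gene with more than 1 cluster was read from its brightest. Groups came from the phenotype labels. Replicate numbers follow accession order and pair nothing. Litters are not given, so p-values measure the spread between these mice.

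The 2 groups were fitted in limma 3.58.1 under R 4.3.3 (lmFit, then eBayes) without covariates, and p-values were adjusted by Benjamini-Hochberg over every cluster tested, with a call at an adjusted p under 0.05. Each adjusted p, SE and 95% interval is from this fit or a stated alternative of it. The script was checked on simulated data. Figures were drawn with matplotlib 3.10.9.

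The 8 genes and the lists were chosen with earlier results of these data known. Named are the 8 genes, up to 4 called genes of each list with the smallest p (or the 2 brightest where none was called), and the 5 genes most like Pde2a and like Gucy2d. Other pathway genes named were chosen after their values were seen. Alternatives were 3 scalings, the methods' t-test, title series as a block, array weights, a filter on dim clusters, all clusters, the dimmest cluster of a gene, and leaving out each array.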

Additional observations from a re-analysis of the deposited data

Results flagged for a closer look

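Arrays were picked out where 1 of the 4 values of a group lay far from the other 3, by Dixon's criterion at the 95% level. Over the 84 groups read, chance picks out about 5%, and 7 were found.

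Among the 8 genes, Gucy1a2 was low in control replicate 1, the control without Cre, at 7.13, against 7.26 in each of the other controls. Gucy1b2 was high in knockout replicate 4, at 8.08 against 7.79 to 7.83 in the other knockouts. Pde3a was low in knockout replicate 3, at 7.46 against 7.78 to 7.83. Each of these arrays still lay on its own group's side.

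Knockout replicate 3 was also low for Tmem63c, a gene picked for values like those of Pde2a, at 8.14 against 8.34 to 8.38, and for Cnga2, at 12.56 against 12.65 to 12.66. Cnga2 was high in control replicate 2, at 13.13 against 13.11 to 13.12, a gap of about the last printed digit. Kirrel2, a mature OSN gene, was low in knockout replicate 1, at 11.17 against 11.44 to 11.49. The causes were not tested.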

How the results depend on the processing

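With the 8 genes, 127 of 131 values over all alternatives kept their direction and their side of the threshold, 1 lost the call (Pde3a with quantile normalization), 1 gained it and 2 turned sign, the last 3 under centring on the mature OSN list. Without 1 array at a time, Gucy1a2 ran from 1.98 to 2.13, Pde2a from 1.53 to 1.69, Pde1b from 1.54 to 1.65, Gucy1b2 from 0.59 to 0.78 and Pde3a from 0.42 to 0.55. These ranges describe genes chosen on the same arrays and support nothing. The change of the 5 genes relative to the 3 markers was 1.32, and 1.26 to 1.37 without 1 array. Centring on the mature OSN list raised the members called higher to 8 and turned Gucy2d (0.47), Car2 (0.47), Nppc (0.32), Pde1c (0.08), Cnga2 (0.09), Cngb1 (0.04), Gnal (0.37), Ano2 (0.21), Slc24a4 (0.27), Ric8b (0.04), Rtp1 (0.24), Rtp2 (0.15), Stoml3 (0.19) and Ncam1 (0.36). This scaling lifts every gene by the fall of that list. Of these genes, Cnga2, Cngb1, Gnal, Ano2, Slc24a4, Ric8b, Rtp1, Rtp2 and Stoml3 are themselves in the list. Cngb1 also turned (0.28) with its dimmest cluster, and the cause was not tested.

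Of all clusters, 492 were called higher. The number was 1028 with array-median centring, 21791 with mature OSN centring, 975 with title series as a block, 1086 with array weights, and 304 to 563 without 1 array. Calls lower numbered 1473, against 780 with mature OSN centring, 760 among clusters above the median level, and 1302 to 1421 without 1 array. Other pathway genes called higher numbered 1, against 6 with array-median centring, 4 with quantile normalization, 46 with mature OSN centring, 7 with the block, 5 with array weights, 2 above the median level, 0 with all clusters and 0 to 4 without 1 array. Those called lower numbered 5, against 1 with mature OSN centring, and 4 in every fit without 1 array, Nppc being lost each time. Title series 7 and 9 hold 1 mouse of each group, and values of dim clusters are limited by signal over background, which the deposited values do not give.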
